A study of Mus musculus with 6 samples.

Results

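The genes described here are 35 genes of the response to unfolded protein in the endoplasmic reticulum (ER) and of the ATF4 stress programme, out of 18193 genes named on the array. They were taken from a fixed list of ER chaperone and ATF4-controlled genes, and each was read by the probe set named for that gene alone with the highest mean over all 6 arrays, so all 35 were measured. The arrays held RNA of neonatal tail tip fibroblasts in culture, taken from mice without *Hotair*, a long noncoding RNA of the Hoxc cluster (*Hotair* knockout, 3 arrays), or from *Hotair* wild-type mice (3 arrays). Both genotypes came from a backcross to C57BL6 with a stated similarity above 97%, and no treatment is given in the labels. The labels do not say how the knockout allele was made or whether arrays of a genotype came from separate animals. All values are log2 probe set values, and every difference is knockout minus wild type.

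Proteins bound for secretion fold in the ER with the help of chaperones, and fibroblasts, which secrete collagen and other matrix, rely on this machinery. When unfolded protein builds up, the sensors IRE1 (*Ern1*), ATF6 and PERK (*Eif2ak3*) raise the genes of chaperones and of ER-associated degradation, which carries misfolded proteins back to the cytosol. PERK also phosphorylates a translation initiation factor, which favours translation of ATF4, and ATF4 raises genes of amino acid supply and of cell death. ATF4 can be raised by other kinases as well, for example when amino acids are short.

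The genes were set in arms by role. The ER arm had 18 genes of folding and ER-associated degradation, the ATF4 arm had 13 genes, and the 4 genes *Xbp1*, *Atf6*, *Eif2ak3* and *Ern1* were kept apart as sensors and factors.

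The promoters were searched for letter patterns of ER stress and ATF4 elements, and the counts below were not tested. The choice of genes read no sequence. Yet the genes were listed as ER chaperone and ATF4-controlled genes, so these counts are not independent of that choice. The ER stress response element (CCAAT, then any 9 bases, then CCACG) was searched on both strands in RefSeq windows of build GRCm38.p6, from 250 bases before to 50 bases after the gene start, where 31 of the 35 genes were listed. It lay in 8 of 16 listed ER arm genes (*Calr*, *Canx*, *Creld2*, *Dnajc3*, *Hsp90b1*, *Hspa5*, *Pdia6* and *Syvn1*), in 0 of 12 ATF4 arm genes and in 0 of 3 sensors, and in 37 of 27025 genes with a window (0.137%). The stretches around these matches are shown because the genes that carry them include the chaperones described below. They are given 5′ to 3′ along the gene, with the matched letters in capitals (CGTGG and ATTGG where the match lies on the opposite strand).
Hspa5, chr2:34772005-34772063, plus strand: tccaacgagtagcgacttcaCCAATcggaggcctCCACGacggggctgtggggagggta
Calr, chr8:84847055-84847113, minus strand: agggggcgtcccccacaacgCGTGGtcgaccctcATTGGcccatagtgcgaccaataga
Canx, chr11:50325780-50325838, minus strand: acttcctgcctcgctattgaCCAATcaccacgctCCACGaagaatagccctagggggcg
Pdia6, chr12:17266471-17266529, plus strand: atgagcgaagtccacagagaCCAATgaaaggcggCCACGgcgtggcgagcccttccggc
Dnajc3, chr14:118937807-118937865, plus strand: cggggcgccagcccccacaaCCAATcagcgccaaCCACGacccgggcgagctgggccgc
Creld2, chr15:88819500-88819558, plus strand: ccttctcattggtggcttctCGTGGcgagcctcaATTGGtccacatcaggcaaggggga
Syvn1, chr19:6046512-6046570, plus strand: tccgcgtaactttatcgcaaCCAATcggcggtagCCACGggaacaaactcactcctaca

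*Hsp90b1* had 2 such matches, with first bases at positions −212 and −107 from its start. The core of the element bound by ATF4 with C/EBP partners (TGATGNAAN) lay in 3 of 12 ATF4 arm genes (*Asns*, *Chac1* and *Trib3*), in 1 of 16 ER arm genes (*Herpud1*), in 0 of 3 sensors and in 4.5% of all genes with a window. Its form TGATGCAAT, which is contained in that pattern, lay in none of the 31 genes and in 0.222% of all. TGACGTGG, the unfolded protein response element, also lay in none of the 31 and in 0.714% of all. No match of one pattern overlapped a match of another in these genes, and a match is a string of letters, not evidence of a bound factor. The matched bases of the ATF4 pattern in promoters of the following genes are in capitals (reversed and complemented where it lies on the opposite strand).
Asns, chr6:7693204-7693252, minus strand: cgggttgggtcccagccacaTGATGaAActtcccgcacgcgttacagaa
Chac1, chr2:119351028-119351076, plus strand: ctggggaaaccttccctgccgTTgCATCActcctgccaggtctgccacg
Herpud1, chr8:94386296-94386344, plus strand: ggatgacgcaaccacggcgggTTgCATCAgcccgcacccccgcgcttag

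The arrays numbered 1 in both genotypes stood apart from the other 4, and the differences of the 35 genes are given with and without them. The median level of 19 measured proliferation genes was 9.20 in knockout replicate 1 and 8.15 in wild-type replicate 1, against 11.16 to 11.50 on the other arrays. Degraded RNA raises the 3′ minus 5′ difference of the *Actb* and *Gapdh* control probe sets. Knockout replicate 1 had the highest of both, 0.63 and 0.75, and the next highest array had 0.21 and −0.03. The median of 10 leukocyte markers was 7.55 on this array and 5.02 to 5.88 on the others. *Tyrobp* was 9.14 on it and 4.88 to 5.45 on the others, and *Lyz2* 10.57 against 5.30 to 7.98. *Cd68* was 7.85 against 4.99 to 6.47. *Ptprc*, which marks all leukocytes, was between 3.84 and 4.44 on all 6, and *Csf1r* and *Cd14* were not highest on this array. The 11 measured fibroblast markers had medians of 12.60 to 12.98 in knockout and 11.86 to 12.79 in wild type, and 8 of the 11 differences were above 0. Among them *Dcn* was 6.87 and *Thy1* 4.65 in wild-type replicate 2, where *Col1a2* was 14.56. Medians of the keratinocyte, endothelial, skeletal muscle and bone or cartilage markers lay between 3.84 and 6.43 on every array, though single markers were higher, such as *Acta1*, an actin of skeletal muscle, at 12.85 in wild-type replicate 1. Their part in the results was not tested, and in these bulk samples fewer cells of a type and less RNA per cell cannot be told apart.

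**Figure D1:**
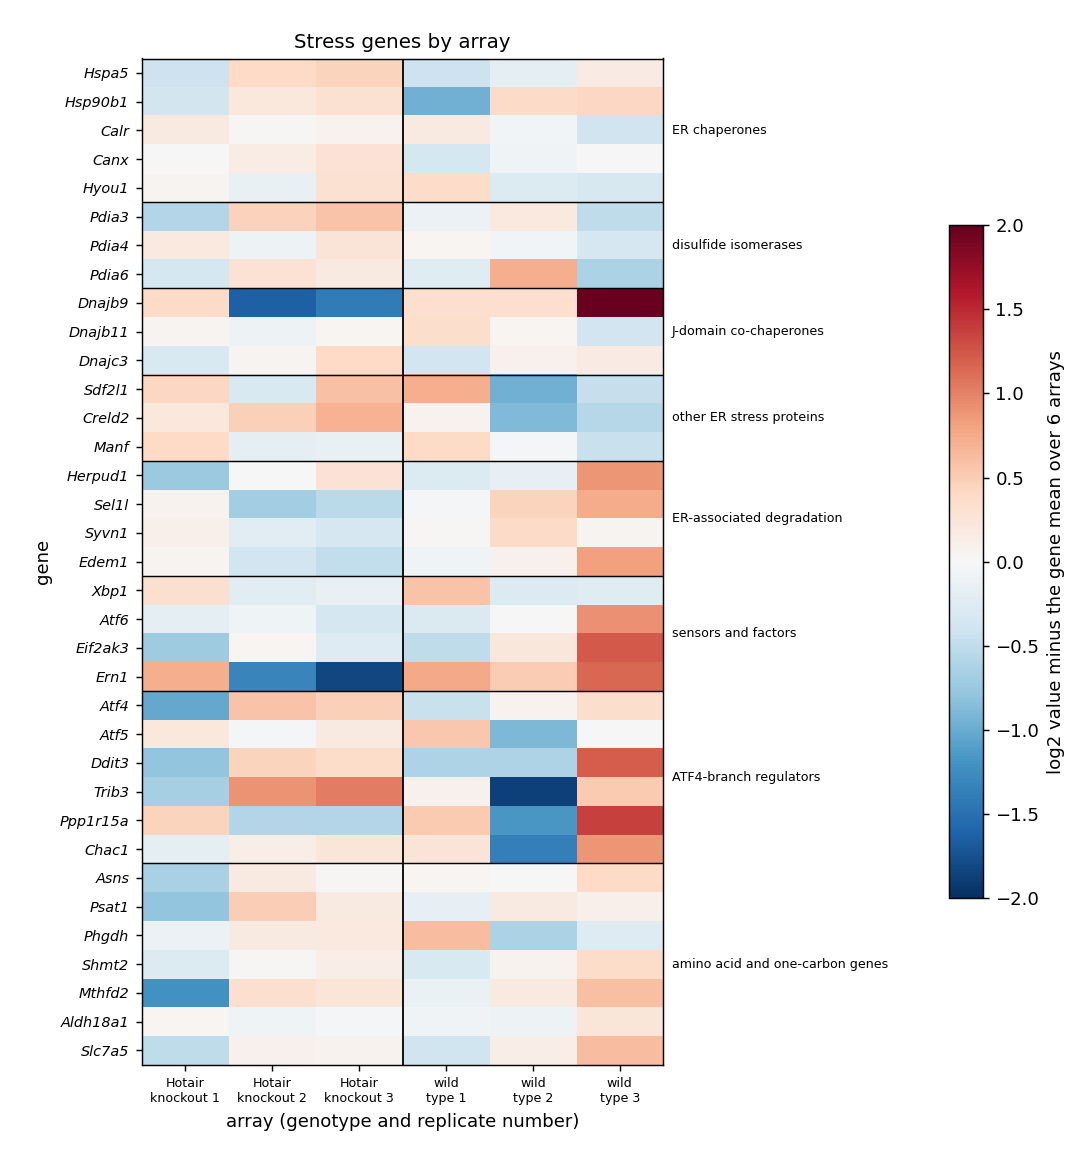
Log2 value of each of the 35 genes on each array (columns, knockout left) minus the mean of that gene over the 6 arrays (colour, log2). *Dnajb9* and *Ern1* are low in knockout replicates 2 and 3 only, while *Trib3* and *Chac1* are lowest in wild-type replicate 2.

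Over the 6 arrays none of the stress genes passed the test. By limma with Benjamini-Hochberg adjustment over 18193 genes, 0 of the 35 were higher and 0 lower at an adjusted p under 0.05 (smallest 0.743), where 0% of all genes were called in either direction. At an unadjusted p under 0.05, *Creld2* was higher (1 of 35, 2.86%, against 4.01% of all genes), and *Dnajb9* and *Sel1l* were lower (2 of 35, 5.71%, against 2.67%). The 3 knockout values all lay above the wild-type values for *Creld2* alone, against 5.56% of all genes, and all lay below them for 0 of the 35, against 4.38%. These shares are near those of all genes and are not a result about the list. The median difference of the 35 genes was 0.02, against 0.01 over all genes, and their median absolute difference was 0.24, against 0.18. The 35 had means of 7.85 to 13.49, while 41.6% of all genes had a mean under 6, so this reference is at an unlike level.

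Without replicate 1 of both genotypes, limma on 2 against 2 arrays called *Creld2* higher and *Dnajb9*, *Sel1l* and *Ern1* lower. This setting was taken up because earlier results of these data had set the arrays apart. The called genes were 2.86% of the 35 on the higher side, against 7.56% of all genes, and 8.57% on the lower side, against 6.41%. Markers were called in the same setting. Of the 11 fibroblast markers 4 were higher, *Dcn* by 4.35, *Thy1* by 4.50, *Lum* by 3.12 and *Col3a1* by 0.86. The leukocyte marker *Cd14* was at −2.81, the keratinocyte marker *Dsp* at −2.82 and *Acta1* at −2.73, all called lower, while 0 of the 9 endothelial and 0 of the 8 bone or cartilage markers were called. Their part in the calls of the stress genes was not tested. With the replicate number as a block, 0 of the 35 passed (smallest adjusted p = 0.425).

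**Figure D2:**
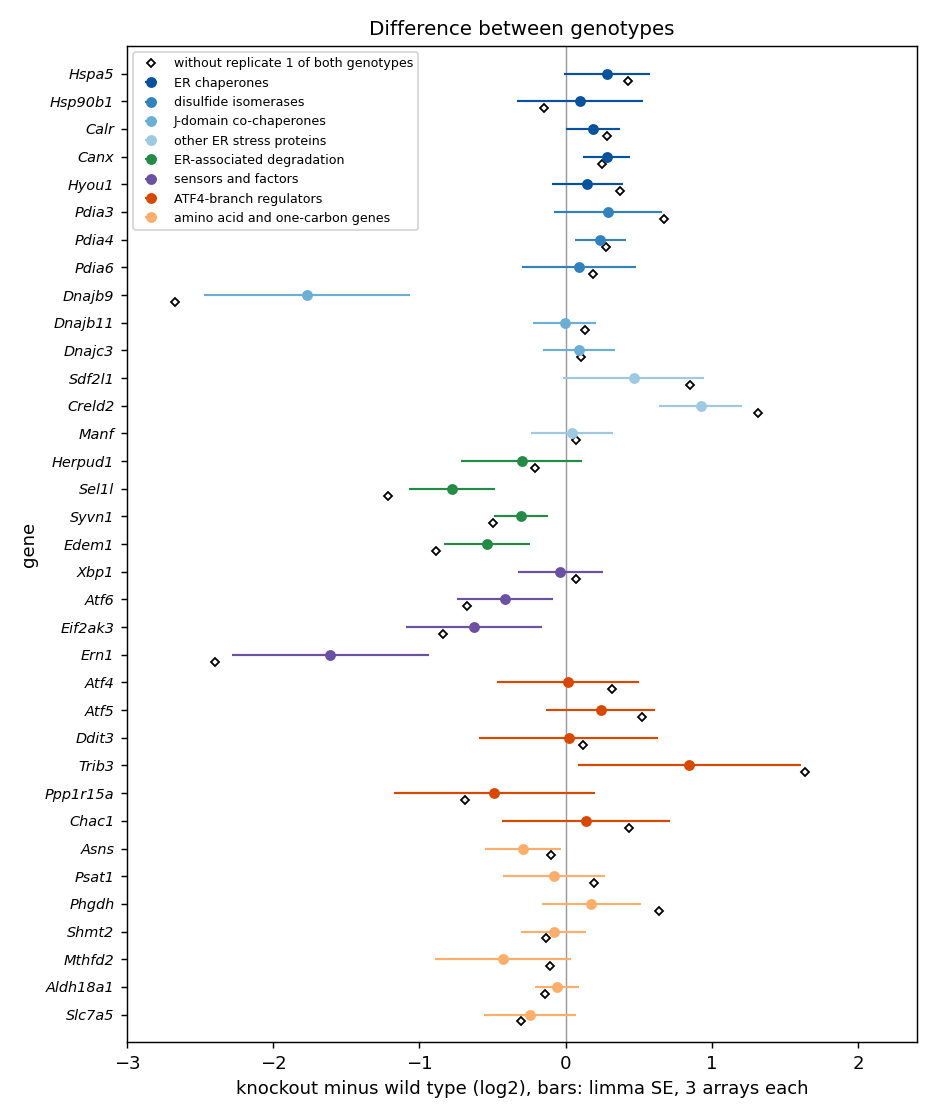
Knockout minus wild-type difference (log2) of each gene, with the limma SE over 3 arrays of each genotype (filled points) and the difference without replicate 1 of both genotypes (open diamonds). All 4 genes of ER-associated degradation and all 4 sensors and factors lie below 0 over the 6 arrays, while all 5 ER chaperones lie above 0 by at most 0.28.

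None of the 5 central chaperones of the ER passed the test, and their differences were 0.10 to 0.28. *Hspa5* encodes BiP, the Hsp70 chaperone that also holds the sensors inactive. It measured 13.07, 13.88 and 13.93 in knockout, against 13.08, 13.31 and 13.65 in wild type. Replicates 2 and 3 of the knockout were above every wild-type array, and replicate 1 of both genotypes was lowest and nearly equal. The difference was 0.28 ± 0.29 (SE, 1.22-fold, limma adjusted p = 0.952), and 0.43 ± 0.18 without replicate 1 (adjusted p = 0.195). Its 3 probe sets differed by 0.28 to 0.35.

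*Canx* and *Calr*, the lectin chaperones calnexin and calreticulin that bind glycoproteins, differed by 0.28 ± 0.16 and 0.19 ± 0.19, and by 0.25 and 0.28 without replicate 1. Of the 3 probe sets of *Canx*, 1 lay below 0, at −0.14 and at −0.58 without replicate 1. Another was at 0.06, and at 0.21 without replicate 1. All 3 probe sets of *Calr* lay above 0. *Hyou1*, an Hsp110-type partner of BiP, was at 0.15 ± 0.24, and at 0.38 without replicate 1. Its 2 other probe sets, dimmer with means of 6.81 and 5.63, were at −0.05 and −0.16. Without replicate 1 they were at 0.32 and 0.05. *Hsp90b1*, the ER form of Hsp90, was at 0.10 ± 0.43, and at −0.14 without replicate 1. All 5 chaperones lay above 0 over the 6 arrays and 4 of 5 without replicate 1, where their median was 0.28. By replicate number their medians were 0.00, 0.12 and 0.29.

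The disulfide isomerases, which form and shuffle the disulfide bonds of secreted proteins, did not pass the test either. *Pdia3*, which works with the lectin chaperones, was at 0.29 ± 0.37 and *Pdia4* at 0.24 ± 0.18, while *Pdia6* was at 0.09 ± 0.39. Without replicate 1 they were at 0.67 ± 0.26 (limma adjusted p = 0.171), 0.27 and 0.19. Each of the 3 had another, dimmer probe set with a mean of 4.69 to 6.06, against 10.19 to 12.83 for those used. It was at −0.40 for *Pdia6* and at −0.00, so without a difference, for *Pdia3* and *Pdia4*. Their medians by replicate number were −0.10, −0.04 and 0.82.

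*Creld2*, an ER-stress-inducible protein with isomerase activity, showed the clearest difference upwards. It measured 10.45, 10.72 and 10.94 in knockout, against 10.30, 9.36 and 9.67 in wild type. Every knockout array was above every wild-type array, although replicate 1 differed by only 0.14. The means were 10.70 ± 0.25 in knockout and 9.78 ± 0.48 in wild type (SD, n = 3), a difference of 0.92 ± 0.28 (SE, 1.90-fold, limma adjusted p = 0.743). Without replicate 1 it was called higher by 1.31 ± 0.18 (2.48-fold, adjusted p = 0.0151). Only 1 probe set reads this gene.

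*Sdf2l1* and *Manf*, small ER proteins induced by the same stress, were less clear. *Sdf2l1*, which works with BiP and its J-domain partners, was at 0.47 ± 0.48 and at 0.85 ± 0.35 without replicate 1 (adjusted p = 0.192). *Manf*, a secreted protein that binds BiP, was at 0.04 ± 0.28, and at 0.07 without replicate 1.

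The J-domain co-chaperones, which pass clients to BiP and stimulate its ATPase, did not move as a group. *Dnajb9*, or ERdj4, which recruits BiP to IRE1 and assists ER-associated degradation, measured 10.13, 8.11 and 8.35 in knockout, against 10.09, 10.08 and 11.72 in wild type. Knockout replicates 2 and 3 were below every wild-type array, while knockout replicate 1 matched the 2 lower wild-type arrays. The means were 8.86 ± 1.11 in knockout and 10.63 ± 0.94 in wild type (SD, n = 3), a difference of −1.77 ± 0.70 (SE, 3.41-fold lower, limma adjusted p = 0.743). By replicate number it differed by 0.04, −1.98 and −3.37. Without replicate 1 it was called lower by 6.38-fold (−2.67 ± 0.53, adjusted p = 0.0329). *Dnajb11* and *Dnajc3*, or p58IPK, differed by −0.01 ± 0.21 and 0.09 ± 0.25, and by 0.14 and 0.10 without replicate 1. Both *Dnajb9* and *Dnajb11* are read by 1 probe set each.

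**Figure D3:**
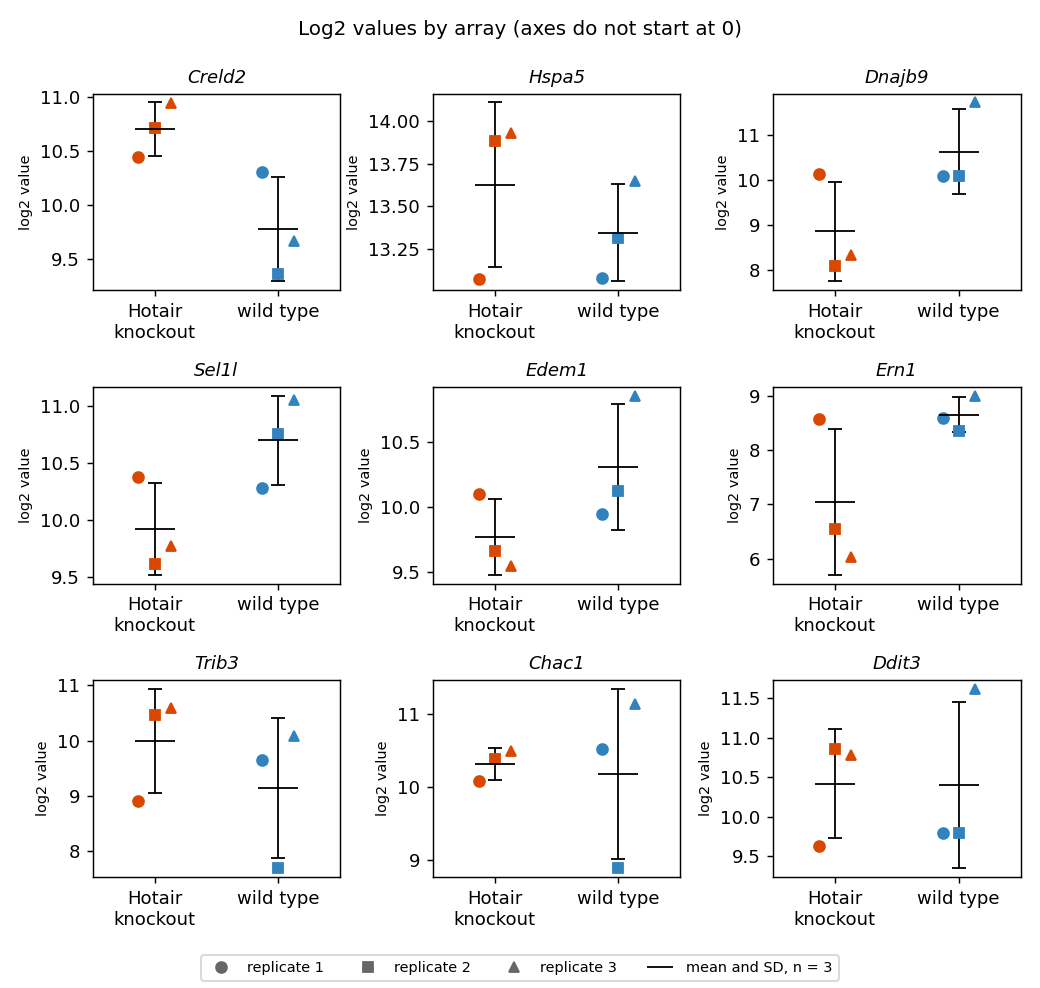
Log2 values of 9 genes on each array (symbols by replicate number) with the mean and SD of 3 arrays, knockout left. The circles of replicate 1 lie side by side for *Hspa5*, *Sel1l*, *Ern1* and *Dnajb9*. Squares and triangles separate by genotype for *Creld2*, *Hspa5*, *Dnajb9*, *Sel1l*, *Edem1*, *Ern1* and *Trib3*, and overlap for *Chac1* and *Ddit3*.

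The 4 listed genes of ER-associated degradation lay below 0, and none passed the test over 6 arrays. *Sel1l*, the adaptor of the HRD1 ubiquitin ligase, measured 10.37, 9.61 and 9.77 in knockout, against 10.28, 10.75 and 11.05 in wild type. Knockout replicates 2 and 3 lay below all wild-type arrays and knockout replicate 1 slightly above its wild-type counterpart. The difference was −0.78 ± 0.29 (SE, 1.71-fold lower, limma adjusted p = 0.743), and all 5 probe sets lay below 0, at −0.50 to −0.94. Without replicate 1 it was called lower by 2.32-fold (−1.21 ± 0.18, adjusted p = 0.0159).

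*Edem1*, a lectin that sends misfolded glycoproteins to degradation, measured 10.10, 9.66 and 9.55 in knockout, against 9.95, 10.13 and 10.86 in wild type. It was low in knockout replicates 2 and 3 and high in wild-type replicate 3, and the groups overlapped through replicate 1. The difference was −0.54 ± 0.29 (limma adjusted p = 0.802), and both probe sets lay below 0. Without replicate 1 it was −0.89 ± 0.27 (adjusted p = 0.0975). *Syvn1*, the HRD1 ligase itself, was at −0.30 ± 0.19, and *Herpud1*, which assembles the ligase complex, at −0.30 ± 0.41. Without replicate 1 they were at −0.50 and −0.21. The median of the 4 genes was −0.42, and −0.69 without replicate 1. By replicate number it was 0.09, −0.54 and −0.94. Other genes of the process, named after their values were seen, lay mostly below 0, where 8888 of all 18193 genes did. Picked in this way, they add no support to the 4 listed genes. *Derl1* was at 0.33 ± 0.21 and *Edem3* at 0.27 ± 0.32, and without replicate 1 they were at 0.46 and −0.07. Below 0 were *Os9* at −0.43 ± 0.33, *Ube2j1* at −0.29 ± 0.46, *Edem2* at −0.21 and *Selenos* at −0.20. *Derl3*, dim with genotype means of 5.96 and 6.10, was at −0.13, *Derl2* at −0.09 and *Erlec1* at −0.01. *Derl2* was at 0.12 without replicate 1. Without replicate 1, limma called *Ube2j1* lower (−0.62 ± 0.14, adjusted p = 0.0485).

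The 14 other genes of the ER arm had a median of 0.17, with 12 above 0 and 2 below, which are *Dnajb9* and *Dnajb11*. The 8 ER arm genes with the ER stress response element in their window had a median of 0.14 (7 above 0), and the 8 listed genes without it had one of −0.15 (3 above 0). This split was not tested.

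The sensors *Ern1*, *Eif2ak3* and *Atf6* lay below 0, with the widest gaps in replicate 3. *Ern1*, the kinase and nuclease that splices *Xbp1* RNA, measured 8.58, 6.54 and 6.03 in knockout, against 8.61, 8.36 and 9.01 in wild type. Knockout replicates 2 and 3 were well below all other arrays, and replicate 1 was equal between genotypes within 0.03. The difference was −1.61 ± 0.67 (SE, 3.05-fold lower, limma adjusted p = 0.746), and without replicate 1 it was called lower by 5.28-fold (−2.40 ± 0.29, adjusted p = 0.0115). It rests on 1 probe set: the other 4, dimmer with means of 3.98 to 6.12, differed by −0.31 to 0.01.

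*Eif2ak3*, which encodes PERK, measured 8.91, 9.66 and 9.36 in knockout, against 9.12, 9.85 and 10.84 in wild type. The groups overlapped, and wild-type replicate 3 was high. The difference was −0.63 ± 0.47 (limma adjusted p = 0.881), and −0.84 ± 0.35 without replicate 1 (adjusted p = 0.200). *Atf6*, a membrane-bound factor cut in the Golgi to enter the nucleus, was at −0.42 ± 0.33 and at −0.67 without replicate 1, also with its highest value (9.98) in wild-type replicate 3.

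*Xbp1*, the factor activated by IRE1, measured 12.13, 11.60 and 11.66 in knockout, against 12.38, 11.55 and 11.57 in wild type. It was high in replicate 1 of both genotypes and nearly the same on the other 4 arrays. The difference was −0.04 ± 0.29 (limma adjusted p = 0.998), and 0.07 without replicate 1. The probe sets do not tell spliced from unspliced *Xbp1* here, so the activity of the pathway was not measured.

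The regulators of the ATF4 arm differed more among the wild-type arrays than between genotypes. *Atf4*, whose protein is set mainly by translation, measured 11.62, 13.22 and 13.13 in knockout, against 12.20, 12.73 and 13.002 in wild type. Replicate 1 was lowest in both genotypes, and the groups overlapped. The difference was 0.02 ± 0.48 (limma adjusted p = 0.999), and 0.31 ± 0.17 without replicate 1 (adjusted p = 0.318).

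*Ddit3*, or CHOP, a factor that promotes cell death under lasting stress, measured 9.62, 10.85 and 10.78 in knockout, against 9.80, 9.79 and 11.61 in wild type. The highest and 2 of the 3 lowest values were in wild type. Its difference was 0.02 ± 0.61 (limma adjusted p = 0.999), with another, dimmer probe set at −0.51. Without replicate 1 it was 0.12 ± 0.58.

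*Trib3*, a pseudokinase induced by ATF4 and CHOP, measured 8.91, 10.47 and 10.60 in knockout, against 9.65, 7.70 and 10.09 in wild type. Wild-type replicate 2 was lowest, and knockout replicates 2 and 3 lay above every wild-type array. The difference was 0.85 ± 0.76 (SE, 1.80-fold, limma adjusted p = 0.925), and 1.64 ± 0.75 without replicate 1 (adjusted p = 0.240). Without wild-type replicate 2 it was 0.12.

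*Chac1*, which degrades glutathione, and *Ppp1r15a*, or GADD34, which reverses the translation block, showed the same spread among wild-type arrays. *Chac1* was 10.07, 10.39 and 10.49 in knockout, against 10.51, 8.89 and 11.13 in wild type. *Ppp1r15a* was 9.82, 8.80 and 8.79 in knockout, against 9.91, 8.22 and 10.74 in wild type. The wild-type values spanned the knockout values for both, and the differences were 0.14 ± 0.58 and −0.49 ± 0.68, and 0.43 and −0.69 without replicate 1. *Atf5*, a factor related to ATF4, was at 0.24 ± 0.37, and at 0.52 ± 0.32 without replicate 1. Of these 6 regulators, 5 were lowest of the wild-type arrays in replicate 2 and 5 highest in replicate 3, against 34.3% and 23.2% of all genes. The median SD of the 6 was 0.64 in knockout and 1.11 in wild type, against 0.24 and 0.27 over all genes. The 6 had means of 9.38 to 12.65, while 41.6% of all genes had a mean under 6. No reference at a like level was made. The median differences of the 6 by replicate number were −0.38, 0.97 and −0.26.

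None of the 7 genes of amino acid supply and one-carbon metabolism passed the test. *Asns*, asparagine synthetase, measured 11.78, 12.60 and 12.46 in knockout, against 12.46, 12.43 and 12.82 in wild type. Knockout replicate 1 was lowest, and the other 5 arrays lay close together. The difference was −0.29 ± 0.26 (limma adjusted p = 0.923), and −0.10 without replicate 1.

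*Mthfd2*, a mitochondrial enzyme of the folate cycle, measured 10.52, 12.07 and 11.97 in knockout, against 11.60, 11.92 and 12.34 in wild type. Here too knockout replicate 1 was lowest, and wild-type replicate 1 was next. The part of the raised 3′ minus 5′ differences of knockout replicate 1 was not tested. *Mthfd2* differed between genotypes by −0.43 ± 0.47 (limma adjusted p = 0.960), and by −0.11 without replicate 1. *Slc7a5*, the LAT1 transporter of large amino acids, measured 10.52, 11.11 and 11.10 in knockout, against 10.63, 11.17 and 11.66 in wild type. Replicate 1 was lowest in both genotypes, and the difference was −0.24 ± 0.31 (limma adjusted p = 0.976), and −0.31 without replicate 1.

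The serine pathway enzymes *Phgdh* and *Psat1* were at 0.18 ± 0.34 and −0.08 ± 0.35, and at 0.64 and 0.19 without replicate 1. One of the 4 probe sets of *Phgdh* was at −1.27, while all 4 were between 0.62 and 0.91 without replicate 1. *Shmt2*, which passes a carbon unit from serine to folate, was at −0.08 ± 0.22, and *Aldh18a1*, which starts proline synthesis, at −0.06 ± 0.15, and both were at −0.14 without replicate 1. Of the 7 genes, 6 lay below 0 and 6 were lowest of the knockout arrays in replicate 1, against 35.9% of all genes. Their median was −0.08, and by replicate number −0.62, 0.15 and −0.28.

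**Figure D4:**
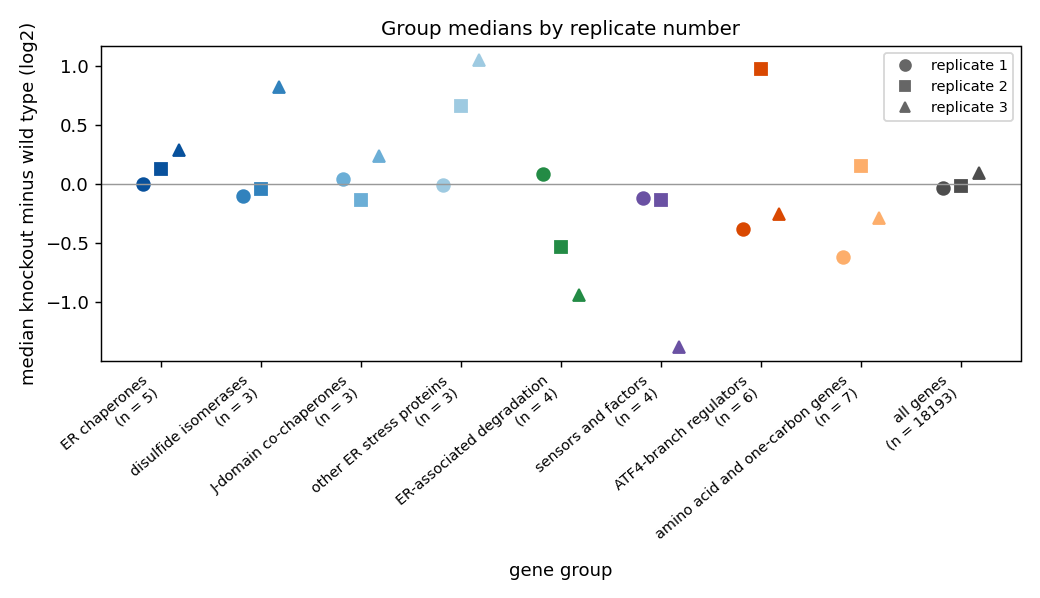
Median knockout minus wild-type difference (log2) of each group of genes within each replicate number (symbols), with all 18193 genes at the right. The medians of ER-associated degradation are 0.09, −0.54 and −0.94, while those of the ATF4-branch regulators are −0.38, 0.97 and −0.26.

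The 2 arms did not differ in a stable direction. The median difference was 0.10 for the ER arm (12 of 18 above 0) and −0.06 for the ATF4 arm (6 of 13 above 0), a gap of 0.15. Within replicate numbers the gap was 0.46, −0.54 and 0.57, and without replicate 1 it was 0.05. It was −0.02 without knockout replicate 1, −0.03 without wild-type replicate 3 and −0.01 with means in place of medians, where the mean of the ER arm was −0.03. No test was made over an arm, since the genes were chosen with earlier results known. The spread of the gap between arrays of a genotype was 0.39 (SD), larger than the gap.

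Replicate 1 stood apart from the other 4 arrays for part of the 35 genes, as it did for part of all genes. Both arrays of replicate 1 lay below the other 4 for 10 of the 35 genes (28.6%, against 12.5% of all genes), namely *Hspa5*, *Hsp90b1*, *Dnajc3*, *Herpud1*, *Eif2ak3*, *Atf4*, *Psat1*, *Shmt2*, *Mthfd2* and *Slc7a5*. Both lay above the other 4 for 5 of the 35 (14.3%, against 24.6% of all genes), namely *Calr*, *Dnajb11*, *Manf*, *Xbp1* and *Atf5*.

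Lists of other genes of the pathway, drawn up by function but with earlier results of these data known, gave 0 calls in either direction over all 6 arrays. Among 37 measured genes of ER folding, transport and degradation, 21 lay above 0 with a median of 0.11. At an unadjusted p under 0.05, 2 were higher and 0 lower, against 4.01% and 2.67% of all genes. *Uggt1*, which senses the folding of glycoproteins, was at 0.62 ± 0.24 and *Sec63*, a J-domain protein of the translocon, at −0.49 ± 0.27. Without replicate 1, limma called 4 of them higher and 2 lower, where 7.56% and 6.41% of all genes were called, and the largest was *Fkbp11*, an ER prolyl isomerase named after its values were seen. It measured 10.03, 10.02 and 9.99 in knockout, against 10.23, 4.34 and 6.87 in wild type, so 2 wild-type arrays stood far below the other 4.

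Of 14 measured other sensors and factors, 5 lay above 0 with a median of −0.11. At an unadjusted p under 0.05, 2 were higher and 0 lower, against 4.01% and 2.67% of all genes. *Eif2ak2*, the double-stranded RNA kinase PKR, which shares the target of PERK, was 9.04, 9.85 and 9.91 in knockout, against 8.05, 8.58 and 8.83 in wild type. All knockout arrays lay above all wild-type arrays, with a difference of 1.11 ± 0.32 (limma adjusted p = 0.743) that was called without replicate 1 (1.17, adjusted p = 0.0148). *Bhlha15*, a factor of secretory cells, was at −0.22 ± 0.13. Without replicate 1, 2 of the 14 were called higher and 1 lower, where 7.56% and 6.41% of all genes were called.

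Of 25 measured other ATF4-controlled genes, 11 lay above 0 with a median of −0.16. At an unadjusted p under 0.05, 0 were higher and 1 lower, against 4.01% and 2.67% of all genes. *Slc7a3*, a transporter of cationic amino acids, was at 1.42 ± 0.84, and *Eif4ebp1*, a brake on translation, at −0.42 ± 0.15. Without replicate 1, limma called 3 of the 25 higher and 2 lower, near the 7.56% and 6.41% of all genes. The 12 aminoacyl-tRNA synthetases had a median of −0.18 and 1 lower at that p, with *Mars1* at −0.52 ± 0.16 and *Eprs* at 0.42 ± 0.34. The 12 measured heat shock genes had a median of −0.15 and 1 higher at that p, with the mitochondrial chaperonin *Hspe1* at 0.52 ± 0.14 and the co-chaperone *Bag3* at −0.75 ± 0.36. Without replicate 1, 0 synthetases were called higher and 1 lower, and 1 heat shock gene each way. These counts too stand against 7.56% and 6.41% of all genes, and are not a result about these lists.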

How the data were processed

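Per the submitters' processing notes, the authors computed the deposited log2 values, 1 per probe set, with RMA under R 2.11.1. RMA gives the probe intensities of all arrays 1 distribution before they are summarised, which hides a shift common to most genes. It also shrinks differences at low signal. The medians of the deposited probe set values were still 5.56 to 5.68 by array. Gene names came from the annotation of the array platform: 34945 of 45101 had 1 gene, giving 18193 genes. Knockout and wild type were set against each other by limma 3.58.1 (R 4.3.3) fitted to all genes, with Benjamini-Hochberg adjustment over all of them at 0.05 and 3 arrays per genotype, whose number limits the precision. Since separate animals are not stated, p-values cover only the variation among these arrays, which could be technical. The genes and lists were chosen with earlier results of these data known. All 35 genes were named, with values by array for those with the smallest p in each arm and for central genes. Further genes were the smallest p in each direction of each list. Deviations of same-numbered arrays from their genotype means correlated at 0.51, 0.39 and 0.35, and the numbers were taken as pairs. Knockout replicate 2 correlated at 0.43 with wild-type replicate 3, and knockout replicate 3 at 0.28 with wild-type replicate 2. Such deviations cancel out within a genotype, so replicate 1 standing apart in both genotypes can give positive values for the other numbers. A pairing of numbers 2 and 3 is not shown, yet the differences by replicate number and the block fit use it. The fit was tested on simulated data.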

Additional observations from a re-analysis of the deposited data

How the results depend on the processing

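Array weights and leaving out both arrays numbered 1 gave the same calls, 1 of the 35 genes higher (*Creld2*) and 3 lower (*Dnajb9*, *Sel1l* and *Ern1*). Leaving those arrays out called 7.56% of all genes higher and 6.41% lower, and these shares were not counted under array weights. The 2 settings are not independent, since the weights of knockout and wild-type replicate 1 were 0.33 and 0.24. On the other arrays the weights were 1.04 to 3.18. An unadjusted p under 0.05 gave 1 higher and 2 lower, against 4.01% and 2.67% of all genes. With the replicate block, a trended robust prior, a filter at a mean of 6, quantile renormalisation, other choices of probe set, an adjusted p under 0.1 and each array left out, limma called 0 in either direction. The replicate block changed no call, and the ER arm, the ATF4 arm and their gap kept medians of 0.10, −0.06 and 0.15 under it. Arm medians and their gap moved by less than their spread between arrays under every alternative run, although the gap and the ATF4 arm changed sign under some: leaving out 1 array gave −0.20 to 0.19 for the ATF4 arm. The following genes changed sign, and none of them was called over 6 arrays. With array weights *Hsp90b1* was at −0.10, *Pdia6* at −0.18, *Dnajb11* at 0.035, *Manf* at −0.020, *Herpud1* at 0.046, *Xbp1* at 0.079 and *Psat1* at 0.062. Without both arrays numbered 1, *Hsp90b1* was at −0.14, *Dnajb11* at 0.14, *Xbp1* at 0.073 and *Psat1* at 0.19. With the mean of all probe sets *Hyou1* was at −0.022, *Pdia6* at −0.16, *Ddit3* at −0.24 and *Phgdh* at −0.23. *Hyou1* was at −0.052 without probe sets ending in _s_at or _x_at, and *Dnajb11* at 0.039 after renormalisation. Leaving out 1 array gave ranges across 0 of −0.35 to 0.33 for *Hsp90b1*, −0.20 to 0.48 for *Pdia6*, −0.20 to 0.17 for *Dnajb11*, −0.084 to 0.27 for *Dnajc3*, −0.17 to 0.25 for *Manf*, −0.52 to 0.065 for *Herpud1*, −0.20 to 0.24 for *Xbp1*, −0.26 to 0.54 for *Atf4*, −0.15 to 0.57 for *Atf5*, −0.28 to 0.63 for *Ddit3*, −1.19 to 0.072 for *Ppp1r15a*, −0.51 to 0.62 for *Chac1*, −0.34 to 0.29 for *Psat1*, −0.10 to 0.53 for *Phgdh*, −0.26 to 0.079 for *Shmt2*, −0.70 to 0.070 for *Mthfd2*, −0.12 to 0.053 for *Aldh18a1* and −0.50 to 0.0095 for *Slc7a5*. The causes were not tested. Probe sets named for 1 gene disagreed in sign for 10 of the 26 genes with more than 1. This count includes *Pdia3* and *Pdia4*, whose dimmer probe sets were at −0.00.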
